A study of Mus musculus with 4 samples.

Results

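Open chromatin around 7 genes of matrix breakdown was compared between keratinocytes with and without JNK1, the kinase encoded by Mapk8. The genes were Mmp3, Mmp9, Mmp10, Mmp13, Mmp14, Plau and Plaur. Peaks of 4 ATAC-seq libraries were merged into 82641 regions wherever they overlapped by at least 1 bp. The 39 regions that overlapped one of the 7 gene bodies, or the 25 kb on either side of it, were kept. They numbered 3 at Mmp3, 1 at Mmp9, 2 at Mmp10, 5 at Mmp13, 7 at Mmp14, 10 at Plau and 11 at Plaur. No region fell in the windows of 2 of these genes. The nearest transcription start site (TSS) was that of the named gene for 19 regions and that of another gene for 20, so a window holds more than the regulatory DNA of its gene.

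ATAC-seq marks open chromatin by the places where the Tn5 transposase can insert sequencing adapters. All 4 libraries came from mice whose skin had received a cream with 5% imiquimod (Aldara) for 8 days, which causes a psoriasis-like inflammation, and keratinocytes were sorted as EpCam+ CD49f-high cells. The 2 Mapk8-KO libraries came from mice in which a Cre recombinase under the keratin 14 promoter deletes the floxed Mapk8 gene (K14-Cre Mapk8 fl/fl), a deletion restricted to cells that use this promoter. The 2 wild-type (WT) libraries are labelled Wild Type only. Per the study's methods the mice were females of 8 to 12 weeks on a C57BL/6 background. No untreated library was analysed here, so the effect of imiquimod itself cannot be read from these data. The paper describes the ATAC-seq samples of each group as 2 independent ones. Neither the labels nor the methods say how many mice stand behind a library, so the spread between libraries may be partly technical.

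The proteins form linked systems that remodel the matrix between and below cells. Matrix metalloproteinases (MMPs) are secreted or membrane-bound zinc enzymes, most of them made as inactive precursors. Plau encodes the urokinase plasminogen activator, a serine protease that converts plasminogen to plasmin, and Plaur encodes the receptor that holds it at the cell surface. Plasmin cleaves matrix itself and activates several MMP precursors. In the epidermis these genes are best known from keratinocytes that migrate to close a wound. Promoters of several of them are textbook targets of AP-1, the dimer of Jun and Fos proteins, and JNK kinases phosphorylate Jun.

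The sequence just upstream of the genes is shown first, because it holds AP-1 motifs, and no accessibility value was used to find them. RefSeq promoter sequences (GRCm38.p6) matched 5 of the 7 genes. The 4 that held the AP-1 motif are printed as the 250 bases before the RefSeq transcript start on the plus strand, on which all 7 genes lie. Capitals mark the AP-1 motif (TGACTCA, or TGAGTCA on the other strand) and the PEA3-type ETS motif (AGGAAG, or CTTCCT on the other strand), a 6-base core recognised by ETS factors. The coordinates are chr9:7445572-7445821 for Mmp3, chr9:7502092-7502341 for Mmp10, chr9:7272264-7272513 for Mmp13 and chr7:24462233-24462482 for Plaur.
Mmp3 promoter: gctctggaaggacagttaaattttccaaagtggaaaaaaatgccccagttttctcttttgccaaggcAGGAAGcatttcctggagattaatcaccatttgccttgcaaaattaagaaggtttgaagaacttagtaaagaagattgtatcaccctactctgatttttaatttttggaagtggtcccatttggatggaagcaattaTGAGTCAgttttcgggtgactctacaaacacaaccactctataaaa
Mmp10 promoter: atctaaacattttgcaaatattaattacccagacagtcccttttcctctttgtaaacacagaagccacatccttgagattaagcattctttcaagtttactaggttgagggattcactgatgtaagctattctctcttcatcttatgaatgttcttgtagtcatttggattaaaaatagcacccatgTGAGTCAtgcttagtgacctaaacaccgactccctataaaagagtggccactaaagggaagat
Mmp13 promoter: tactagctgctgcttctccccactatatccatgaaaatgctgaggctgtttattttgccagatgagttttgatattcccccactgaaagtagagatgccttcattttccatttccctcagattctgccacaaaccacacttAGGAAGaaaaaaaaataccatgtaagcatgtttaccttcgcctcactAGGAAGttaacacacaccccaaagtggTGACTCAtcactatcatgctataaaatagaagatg
Plaur promoter: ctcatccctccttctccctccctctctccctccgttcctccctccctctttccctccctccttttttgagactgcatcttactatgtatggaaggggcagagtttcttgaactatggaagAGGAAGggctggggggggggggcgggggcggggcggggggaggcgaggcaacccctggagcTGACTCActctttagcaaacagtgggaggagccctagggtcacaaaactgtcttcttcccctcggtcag

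The AP-1 motif started 46 bases upstream of the transcript start in Mmp3, 63 in Mmp10, 35 in Mmp13 and 69 in Plaur. Thus 4 of 5 promoters held it, against 4.46% of 32851 RefSeq mouse promoters of the same length. The Mmp14 promoter held no AP-1 motif in these 250 bases. The PEA3-type ETS motif was present in Mmp3, Mmp13, Mmp14 and Plaur, again 4 of 5, against 29.5% of all promoters. In Mmp13 it occurred at 109 and at 62 bases upstream of the start. The ATF/CREB motif TGACGTCA, a related site bound by other dimers, was in none of the 5 and in 1.55% of all promoters. These matches describe the letters only. The genes were listed as known AP-1 targets, so a high AP-1 share in their promoters follows from that choice and is no result about them.

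The motif was then counted at the open regions, within 100 bp of the strongest summit, a stretch that can reach past the region's edge. It was found there for 14 of 39 regions, which is 35.9% with a Wilson 95% interval of 22.7 to 51.6, against 23.7% of all 82641 regions. At the Plau region 11.2 kb downstream of the start, the motif so counted lay outside the region. Over whole regions the count was 17 of 39, or 43.6%, against 29.7%. Among the 19 regions that were called in every library the share was 21.1%, against 24.4% of the 40159 such regions of the genome. Of the 14 AP-1 bearing regions 4 were called throughout, or 28.6%, against 50.1% of all AP-1 regions. The ETS motif was near the summit of 28.2% of the 39 regions against 24.3% of all regions, and the RUNX motif TGTGGT near 17.9% against 13.3%. The intervals of the ETS and RUNX shares were 16.5 to 43.8 and 8.98 to 32.7, and that of AP-1 over whole regions 29.3 to 59.0. All of these intervals, that of AP-1 near the summit included, contain the share of all regions, and they cover counting error only.

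The libraries differed in depth, and this touches every count that follows. How many fragments covered each summit (the pileup) was worked out from the deposited fold and p values. Taking WT 1 as 1, the depth of WT 2 was 0.691, that of Mapk8-KO 1 was 1.12 and that of Mapk8-KO 2 was 0.644, and no list held a summit of fewer than 8 fragments. Where a region was not called its level is unknown and lies below the reach of the list, not at 0. Total read numbers are unknown. The labelled cell type was checked on promoters of keratinocyte markers, of which 5 to 7 of 7 were called per library. Their percentiles ran from 2.43 (Krt5 in WT 2) to 96.3 (Krt14 in Mapk8-KO 1). Those of the called melanocyte marker promoters ran from 59.1 to 94.2, so a call alone is a weak check. Of 8 immune markers 0 or 1 was called (S100a8), and the leukocyte marker Ptprc was called in none. Promoters of 2 of 6 fibroblast, 2 or 3 of 4 endothelial, 3 of 4 melanocyte and 1 or 2 of 5 neutrophil markers were called in every library as well, and an open promoter alone does not show that cells of those types were present. The Mapk8 promoter was called in all 4 libraries, at percentiles of 69.2 and 78.9 in WT and 70.9 and 87.7 in Mapk8-KO, and an open promoter does not check the deletion. At the Krt14 promoter a region held 199 and 109 fragments in the Mapk8-KO libraries, against 36 in WT 1 and no call in WT 2. A second region at this promoter did not share that direction. It held 38 and 17 fragments in WT and 33 in Mapk8-KO 1, with no call in Mapk8-KO 2.

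Of the 39 regions, WT 1 called 34, WT 2 called 29, Mapk8-KO 1 called 35 and Mapk8-KO 2 called 21. As shares these were 87.2, 74.4, 89.7 and 53.8%, beside 83.8, 65.2, 83.2 and 59.1% of all 82641 regions. The first 3 libraries called a somewhat larger share of the regions at these genes than of all regions, and Mapk8-KO 2 a somewhat smaller one. With 39 regions these differences amount to few regions, and they were not tested. For comparison, the 19607 regions of the whole atlas with an AP-1 motif were called at 89.7, 73.7, 84.3 and 54.6%, again lowest in Mapk8-KO 2.

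**Figure D1:**
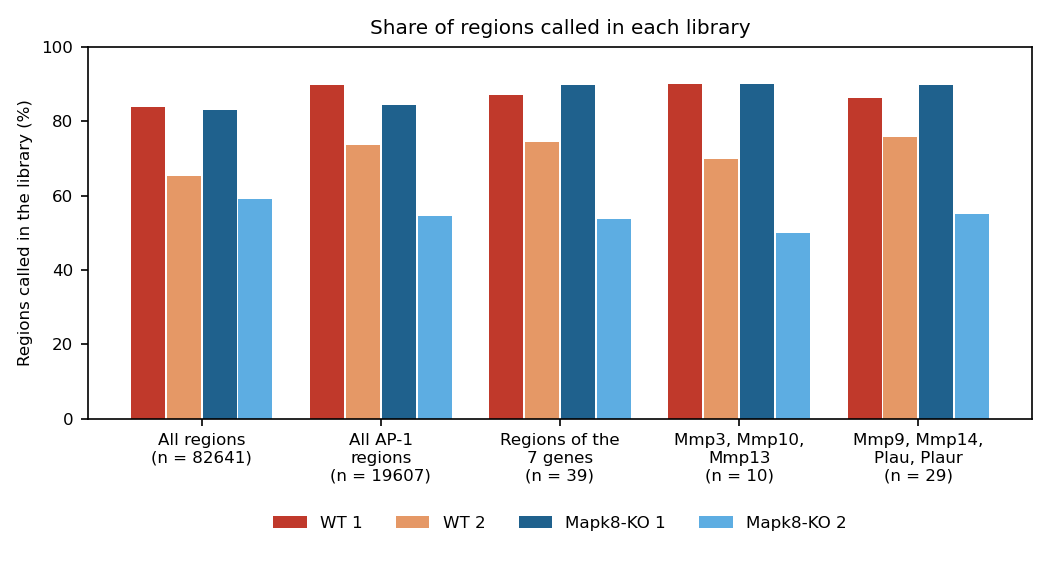
Share of regions called in each library (y axis, percent, from 0) for all merged regions, all regions with an AP-1 motif within 100 bp of the summit, the 39 regions of the 7 genes, and these divided into the chromosome 9 genes and the other 4 genes. Each bar is 1 library, so there is no error bar, and Mapk8-KO 2 is the lowest bar of every group, at 53.8% of the 39 regions beside 59.1% of all regions.

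A set of 19 of the 39 regions was called in every library, or 48.7%, near the 48.6% of all regions. Of the other 20, 7 were called in every library but Mapk8-KO 2. That is 17.9%, against 9.91% of all regions. For the other libraries these figures were 1 region missing only in WT 2 (4.86% of all regions), 0 missing only in WT 1 (0.558%) and 0 missing only in Mapk8-KO 1 (0.382%). Those 7 were the regions 18.2 kb downstream of the Mmp3 start, 2.2 kb upstream of Mmp13, 31.3 kb downstream of Mmp14, 8.98 kb upstream and 9.8 kb downstream of Plau, and 0.952 kb upstream and 18.6 kb downstream of Plaur. A further 5 were called only in WT 1 and Mapk8-KO 1, the deeper library of each genotype (7.91% of all regions), and 5 in a single library (21.7% of all regions). The remaining 2 were the Mmp13 promoter region, called once in each genotype, and the Plau intron region. Called in both WT libraries and in neither Mapk8-KO library were 0 of 39, against 2.17% of all regions. The reverse held for 1 of 39, an intron region of Plau, against 1.65%. Calls were thus specific to a genotype at 1 of the 39 regions, and both counts are near the shares of all regions.

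**Figure D2:**
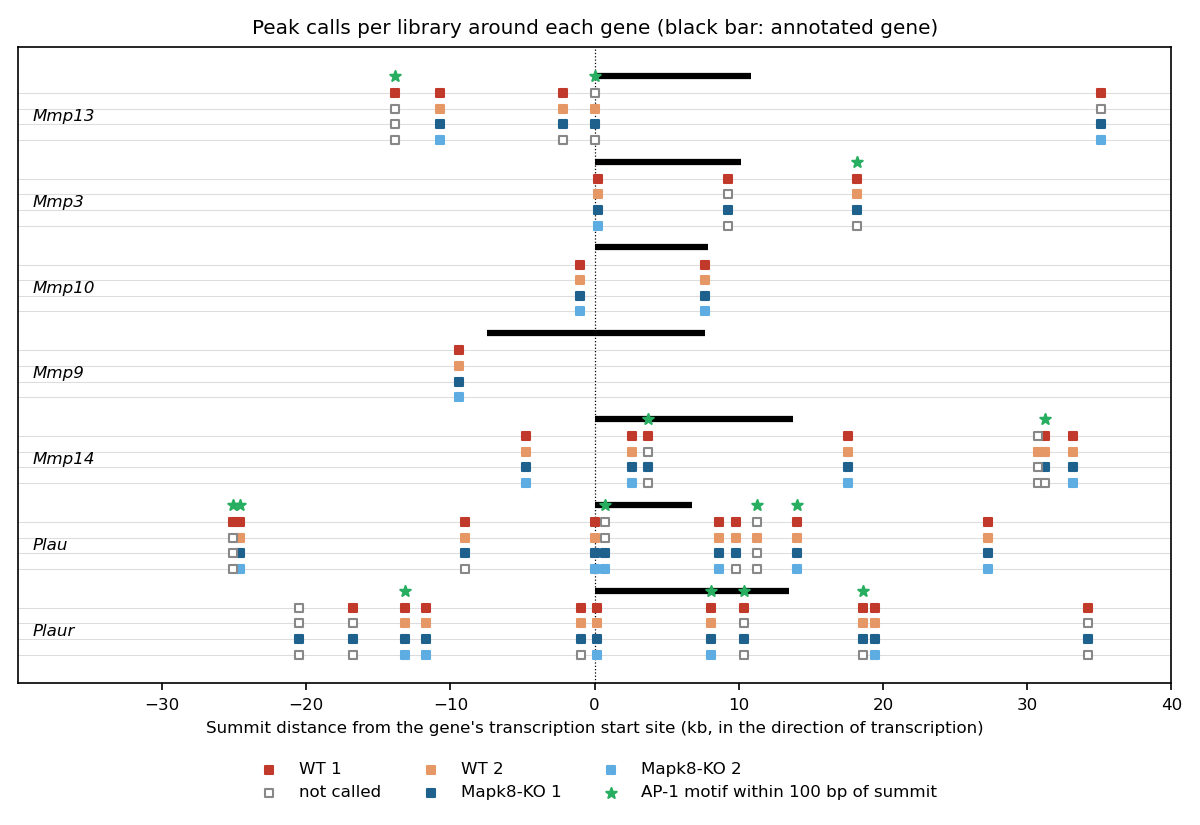
Peak calls of the 4 libraries at each gene, with the summit's distance from the TSS in kb on the x axis and 1 row per library. Filled squares mark a call, open grey squares a region not called in that library, stars an AP-1 motif within 100 bp of the summit, and the black bar the annotated gene (for Mmp9 the annotated gene starts upstream of the TSS used); 7 columns lack only the lowest square, Mapk8-KO 2.

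To compare levels, each peak's fold enrichment was turned into a percentile of its own library's list, and the fragments at the summit were divided by the library's depth to give fragments at the depth of WT 1. The lists differ in length, and percentiles do not start from the same level. Regions called in all 4 libraries had median percentiles of 68.0 and 60.8 in WT and 69.3 and 58.6 in Mapk8-KO. Differences in log2 depth-scaled fragments, Mapk8-KO minus WT, were tested with limma over the 40159 regions called in all 4 libraries, with Benjamini-Hochberg adjustment over all of them. The 20 regions missing in any library have no place in that test. It called 94 regions in the genome, 86 lower in Mapk8-KO (0.214% of those tested) and 8 higher (0.0199%). Of the 19 regions at the 7 genes it called 0 in either direction. At an unadjusted p under 0.05 there were 3 of 19, against 10.4% of all regions tested. The 3 were 2 regions of Mmp10 and 1 of Mmp13, all lower in Mapk8-KO.

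Mmp3, Mmp10 and Mmp13 lie near each other on chromosome 9, in a cluster of metalloproteinase genes that also holds Mmp1a. Mmp13 (ENSMUSG00000050578.10, chr9:7272514-7283331) encodes collagenase-3, which cleaves fibrillar collagen. Its only region called in all 4 libraries was intergenic, 10.8 kb upstream of the start at chr9:7261453-7261923. This region held 48 and 39 fragments in the WT libraries and 44 and 11 in the Mapk8-KO libraries. At the depth of WT 1 these are 48.0, 56.4, 39.4 and 17.1 fragments. Both Mapk8-KO libraries lay below both WT libraries, Mapk8-KO 1 slightly and Mapk8-KO 2 far. In percentiles it stood at 69.4, 67.0, 66.6 and 12.8, so that 3 libraries were alike by rank and 1 was low. The log2 difference was -1.004 (SE 0.30, unadjusted p = 0.00158, limma adjusted p = 0.14), the largest among the 19 regions. Against the WT mean it was -0.40 in Mapk8-KO 1 and -1.61 in Mapk8-KO 2. Because this region shows the widest difference between the Mapk8-KO libraries, the bases around its strongest summit (mm10, plus strand, chr9:7261658-7261858) are printed. They hold none of the motifs that capitals mark, and the AP-1 motif of this region lies outside them.
Mmp13 upstream region: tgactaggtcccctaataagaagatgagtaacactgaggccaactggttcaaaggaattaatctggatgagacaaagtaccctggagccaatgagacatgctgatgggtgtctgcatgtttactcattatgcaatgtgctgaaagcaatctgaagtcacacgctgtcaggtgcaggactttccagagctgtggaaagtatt

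The other Mmp13 regions showed which libraries reached the calling limit. The promoter region (chr9:7272424-7272698, summit in the first exon) holds the AP-1 motif shown above within 100 bp of its summit. It was called in WT 2 with 21 fragments, at percentile 41.3, and in Mapk8-KO 1 with 30 fragments, at percentile 57.2, and in neither WT 1 nor Mapk8-KO 2. One call in each genotype gives no direction. The region 2.2 kb upstream was missing in Mapk8-KO 2 only and stood at percentiles of 69.9 and 65.0 in WT and 66.8 in Mapk8-KO 1. The region 35.1 kb downstream was missing in WT 2 and stood at 68.8 in WT 1 and at 58.9 and 12.8 in the Mapk8-KO libraries. A region 13.9 kb upstream, with an AP-1 motif, was called in WT 1 alone with 21 fragments.

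Mmp10 (ENSMUSG00000047562.3, chr9:7502352-7510240) encodes stromelysin-2, which keratinocytes make at the edge of a wound. Its promoter-side region lay 1.03 kb upstream of the start (chr9:7501197-7501676) and ended short of the AP-1 motif printed above. It held 64 and 46 fragments in WT and 63 and 20 in Mapk8-KO, or 64.0, 66.6, 56.5 and 31.1 at the depth of WT 1. The log2 difference was -0.64 (SE 0.24, unadjusted p = 0.0124, limma adjusted p = 0.302). Against the WT mean it was -0.21 in Mapk8-KO 1 and -1.07 in Mapk8-KO 2. Percentiles were 78.4 and 81.6 in WT and 75.1 and 43.7 in Mapk8-KO. Both Mapk8-KO libraries thus ranked below both WT libraries, with a gap of 3.34 points, and Mapk8-KO 2 was far lower than the others. The other region, in the last exon 7.66 kb downstream of the start (chr9:7509717-7510333), was among the strongest at these genes, at percentiles of 94.7, 93.7, 94.96 and 90.2. It held 131 and 96 fragments in WT and 143 and 52 in Mapk8-KO, or 131, 139, 128 and 80.7 at the depth of WT 1. Its log2 difference was -0.41 (SE 0.18, unadjusted p = 0.0337, limma adjusted p = 0.427), with -0.074 in Mapk8-KO 1 and -0.74 in Mapk8-KO 2. As ranks the libraries were close at this region, while the scaled fragments of Mapk8-KO 2 were the lowest by a clear margin.

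Mmp3 (ENSMUSG00000043613.8, chr9:7445822-7455975) encodes stromelysin-1, which cleaves many matrix proteins and activates other MMP precursors. Its promoter region (chr9:7445498-7446267, summit in the first intron) covers the AP-1 motif printed above. It held 64 and 56 fragments in WT and 76 and 34 in Mapk8-KO, or 64.0, 81.0, 68.1 and 52.8 at the depth of WT 1. The groups overlapped here, since Mapk8-KO 1 lay between the WT libraries. Percentiles were 89.5, 92.4, 87.3 and 77.9, and the log2 difference was -0.26 (SE 0.21, limma adjusted p = 0.71). The intron region 9.24 kb downstream was called in WT 1 and Mapk8-KO 1 with 18 and 23 fragments. The region 18.2 kb downstream, at the start of Mmp1a and with an AP-1 motif, was missing in Mapk8-KO 2 only, with 20 fragments in each WT library and 16 in Mapk8-KO 1.

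Over the 10 regions of these 3 genes, WT 1 called 9, WT 2 called 7, Mapk8-KO 1 called 9 and Mapk8-KO 2 called 5. In all 4 regions called in every library, WT 2 had the highest and Mapk8-KO 2 the lowest depth-scaled pileup. The median log2 level of the 4, against the mean of the libraries, was 0.23 and 0.33 in the WT libraries and 0.11 and -0.64 in the Mapk8-KO libraries. Both Mapk8-KO libraries lay below both WT libraries in 3 of the 4. Over all 19 regions of the 7 genes this was so in 4, beside 20.4% of all regions tested, and the reverse in 2, beside 20.3%. The low values of these regions were thus mainly those of 1 library. Without Mapk8-KO 2 the log2 differences were -0.37 (adjusted p = 0.904) at the Mmp13 upstream region, -0.18 (adjusted p = 0.959) and -0.047 (adjusted p = 0.99) at the Mmp10 regions and -0.053 (adjusted p = 0.99) at the Mmp3 promoter, by limma. Without Mapk8-KO 1 limma called 3 of them, with adjusted p values of 9.8e-05 for the Mmp13 upstream region and 0.00394 and 0.00719 for the Mmp10 regions. In that fit the lone Mapk8-KO library is assumed to vary as the WT libraries do, and 1947 regions were called genome-wide.

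Mapk8-KO 2 was also the shallowest library, and its AP-1 regions were low across the genome. It had the lowest depth-scaled pileup in 52.0% of all AP-1 regions called in every library, against 31.2% of all regions called in every library. Over all regions without the motif near the summit and called in every library it was lowest in 24.5%. At the 7 genes it was lowest in 10 of 19 regions, and in 8 of the 15 without the motif near the summit. Median log2 differences, Mapk8-KO minus WT, were -0.13 over all AP-1 regions, with 68.0% of them below 0, and 0.0053 over all regions tested. Over all regions without the motif the median was 0.045, with 43.2% below 0. None of the 4 chromosome 9 regions called in every library held the motif within 100 bp of its summit. The Mmp13 upstream region, the Mmp3 promoter region and the Mmp10 last-exon region held it farther from the summit. WT 2, at a depth of 0.691 beside 0.644 for Mapk8-KO 2, was the highest library at all 4. The part of depth and of the shift of AP-1 regions in the values at Mmp10 and Mmp13 was not tested.

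**Figure D3:**
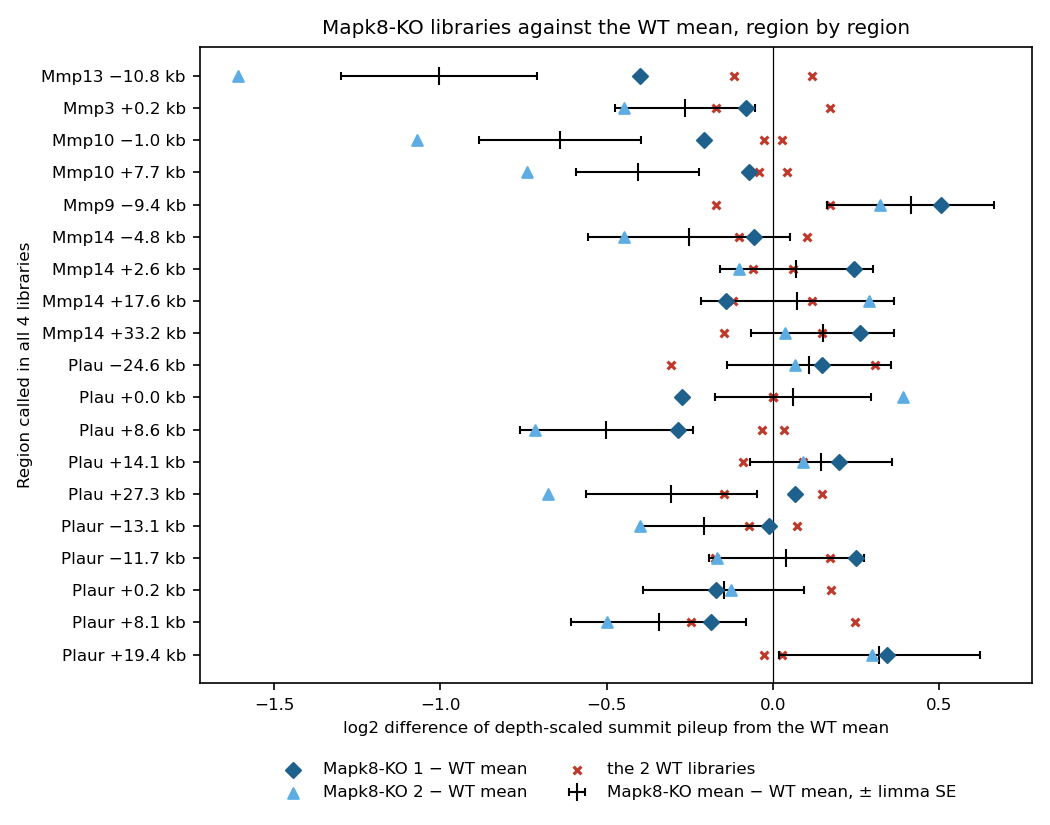
Log2 difference of depth-scaled summit fragments from the WT mean (x axis) for the 19 regions called in all 4 libraries (y axis, named by gene and distance of the summit from the TSS). Diamonds and triangles are Mapk8-KO 1 and 2, crosses the 2 WT libraries, and black bars the Mapk8-KO minus WT estimate ± limma SE; Mapk8-KO 2 lies farthest left at the Mmp13 and Mmp10 regions, at -1.61 for the Mmp13 region, while Mapk8-KO 1 stays between -0.40 and -0.074 there.

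Mmp9 (ENSMUSG00000017737.2, chr2:164940780-164955850), the gelatinase that cleaves basement membrane collagen, had a single region, intergenic and 9.39 kb upstream of its TSS (chr2:164938622-164939056). It held 32 and 28 fragments in WT and 57 and 29 in Mapk8-KO. At the depth of WT 1 these are 32.0, 40.5, 51.1 and 45.0 fragments, both Mapk8-KO libraries above both WT libraries. Percentiles were 77.8 and 82.3 in WT and 97.8 and 85.7 in Mapk8-KO, a gap of 3.39 points between the groups. The log2 difference was 0.41 (SE 0.25, limma adjusted p = 0.594), which did not exceed the spread between libraries by this test. The direction was opposite to that at the chromosome 9 genes, and the difference between the loci was not tested. No region was called within 2 kb of the TSS used for Mmp9, the only one of the basic annotation. The annotated gene starts farther upstream, and the region lies within 2 kb of that start.

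Mmp14 (ENSMUSG00000000957.11, chr14:54431612-54445364) encodes a membrane-anchored metalloproteinase that activates the precursor of gelatinase A at the cell surface. No region was called within 2 kb of its own TSSs. Its intron region 2.59 kb downstream of the start (chr14:54433857-54434489) was called in every library, with 48 and 36 fragments in WT and 66 and 30 in Mapk8-KO. Percentiles were low, at 31.0, 29.9, 45.8 and 25.3, and the log2 difference was 0.070 (SE 0.23, limma adjusted p = 0.952). A second intron region 3.72 kb downstream, with an AP-1 motif, was called in WT 1 and Mapk8-KO 1 with 30 and 37 fragments. The other 5 regions of the window lay nearer to Mrpl52, Gm24424 or Lrp10. Of these, the 3 called in every library had log2 differences of -0.25, 0.073 and 0.15, each with an SE of 0.22 to 0.30.

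Plau (ENSMUSG00000021822.3, chr14:20836660-20843385) had 10 regions, 5 of them with an AP-1 motif near the summit. The promoter region (chr14:20836310-20837020, summit in the first exon) was called in every library with 52 and 36 fragments in WT and 48 and 44 in Mapk8-KO. Scaled to the depth of WT 1 the WT libraries were equal at 52.0 and 52.1, while the Mapk8-KO libraries lay on either side at 43.0 and 68.3. The log2 difference was 0.059 (SE 0.23, limma adjusted p = 0.961). At this promoter, unlike the regions on chromosome 9, Mapk8-KO 2 was the highest library.

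An intron region of Plau, 0.687 kb downstream of the start (chr14:20837272-20837529), was the one region called in both Mapk8-KO libraries and in neither WT library. It held 32 fragments in Mapk8-KO 1 and 19 in Mapk8-KO 2, at percentiles of 36.0 and 15.9, or 28.7 and 29.5 fragments at the depth of WT 1. The value in WT is unknown, and the region lies in the lower part of both lists. The bases around its summit (mm10, plus strand, chr14:20837247-20837447) carry an AP-1 and an ETS motif, in capitals, and are printed with those of a second Plau region that ranked higher in Mapk8-KO (chr14:20850620-20850820), which carries an AP-1 motif.
Plau intron region: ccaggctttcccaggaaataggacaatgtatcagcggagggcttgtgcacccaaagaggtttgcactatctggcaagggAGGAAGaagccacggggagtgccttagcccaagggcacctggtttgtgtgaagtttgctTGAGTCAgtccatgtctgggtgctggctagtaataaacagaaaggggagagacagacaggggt
Plau downstream region: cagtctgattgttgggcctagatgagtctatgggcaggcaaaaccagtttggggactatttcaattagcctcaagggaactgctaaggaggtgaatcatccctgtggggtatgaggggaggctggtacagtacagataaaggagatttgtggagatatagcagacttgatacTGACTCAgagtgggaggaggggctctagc

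That second region lay 14.1 kb downstream of the Plau start (chr14:20850514-20850933) and nearer to the TSS of Gm6128, at 5488 bp. Percentiles were 52.5 and 48.8 in WT and 65.1 and 64.7 in Mapk8-KO. The gap of 12.1 points made it the only one of the 19 regions in which all libraries of one genotype ranked at least 10 points above those of the other. That is 1 of 19, beside 3.78% of all regions for a higher rank in Mapk8-KO, and 0 of 19 beside 2.65% for a higher rank in WT. In depth-scaled fragments the libraries were close, at 59.0 and 52.1 in WT and 63.6 and 59.0 in Mapk8-KO, with a log2 difference of 0.14 (SE 0.21, limma adjusted p = 0.869). The rank gap was lost when percentiles were taken among regions called in all 4 libraries or from the p values, so rank and level did not give the same picture here.

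None of the remaining Plau regions passed the test. The region 8.6 kb downstream (chr14:20845076-20846013) had 47 and 31 fragments in WT and 42 and 18 in Mapk8-KO, or 47.0, 44.9, 37.6 and 27.9 at the depth of WT 1. Both Mapk8-KO libraries lay below both WT libraries, with a log2 difference of -0.50 (SE 0.26, limma adjusted p = 0.507). The region 27.3 kb downstream was at percentiles of 94.2, 84.4, 93.9 and 59.1, with Mapk8-KO 2 the low library again and a log2 difference of -0.31. The region 24.6 kb upstream, with an AP-1 motif, stood at 72.3 and 88.0 in WT and 90.1 and 75.2 in Mapk8-KO, with a log2 difference of 0.11, and the groups overlapped. The other 4 were called in 1 to 3 libraries.

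Plaur (ENSMUSG00000046223.10, chr7:24462484-24475968) had the most regions, 11, of which 5 were called in every library. The promoter region (chr7:24462311-24463031, summit in the first intron) covers the AP-1 motif printed above. It was the most even of the promoters, with 42 and 37 fragments in WT and 47 and 28 in Mapk8-KO and percentiles of 48.9, 50.9, 54.8 and 53.6. At the depth of WT 1 these are 42.0, 53.5, 42.1 and 43.5 fragments, so WT 2 was high and the other 3 alike. The log2 difference was -0.15 (SE 0.24, limma adjusted p = 0.885). The intron region 8.08 kb downstream (chr7:24470394-24470786) bore an AP-1 and an ETS motif within 100 bp of its summit, the AP-1 motif nearly at the summit itself, and the bases around it (mm10, plus strand, chr7:24470466-24470666) are shown for that reason.
Plaur intron region: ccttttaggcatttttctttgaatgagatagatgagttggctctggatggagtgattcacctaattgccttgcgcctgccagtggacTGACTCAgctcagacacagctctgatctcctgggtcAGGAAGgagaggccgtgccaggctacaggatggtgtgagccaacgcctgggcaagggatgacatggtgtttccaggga

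This Plaur intron region held 37 and 36 fragments in WT and 43 and 20 in Mapk8-KO, or 37.0, 52.1, 38.5 and 31.1 at the depth of WT 1. Percentiles were 64.4, 73.9, 76.4 and 51.3, and the log2 difference was -0.34 (SE 0.26, limma adjusted p = 0.694), with Mapk8-KO 1 between the WT libraries. Farther upstream, 13.1 kb from the start and within Irgc1 and Gm36159, a region with 2 AP-1 motifs near its summit held 80 and 61 fragments in WT and 93 and 41 in Mapk8-KO. Its log2 difference was -0.21 (SE 0.19, limma adjusted p = 0.768), again with Mapk8-KO 2 lowest. The region 19.4 kb downstream, at the start of Cadm4, held 18 and 12 fragments in WT and 25 and 14 in Mapk8-KO. At the depth of WT 1 these are 18.0, 17.4, 22.4 and 21.7 fragments, both Mapk8-KO libraries above both WT libraries, while by percentile WT 1, at 30.2, lay between the Mapk8-KO libraries. The log2 difference was 0.32 (SE 0.30, limma adjusted p = 0.767). At pileups this low a few fragments move the value. The region 0.952 kb upstream of the Plaur start was missing in Mapk8-KO 2 only, with 37 and 29 fragments in WT and 50 in Mapk8-KO 1.

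**Figure D4:**
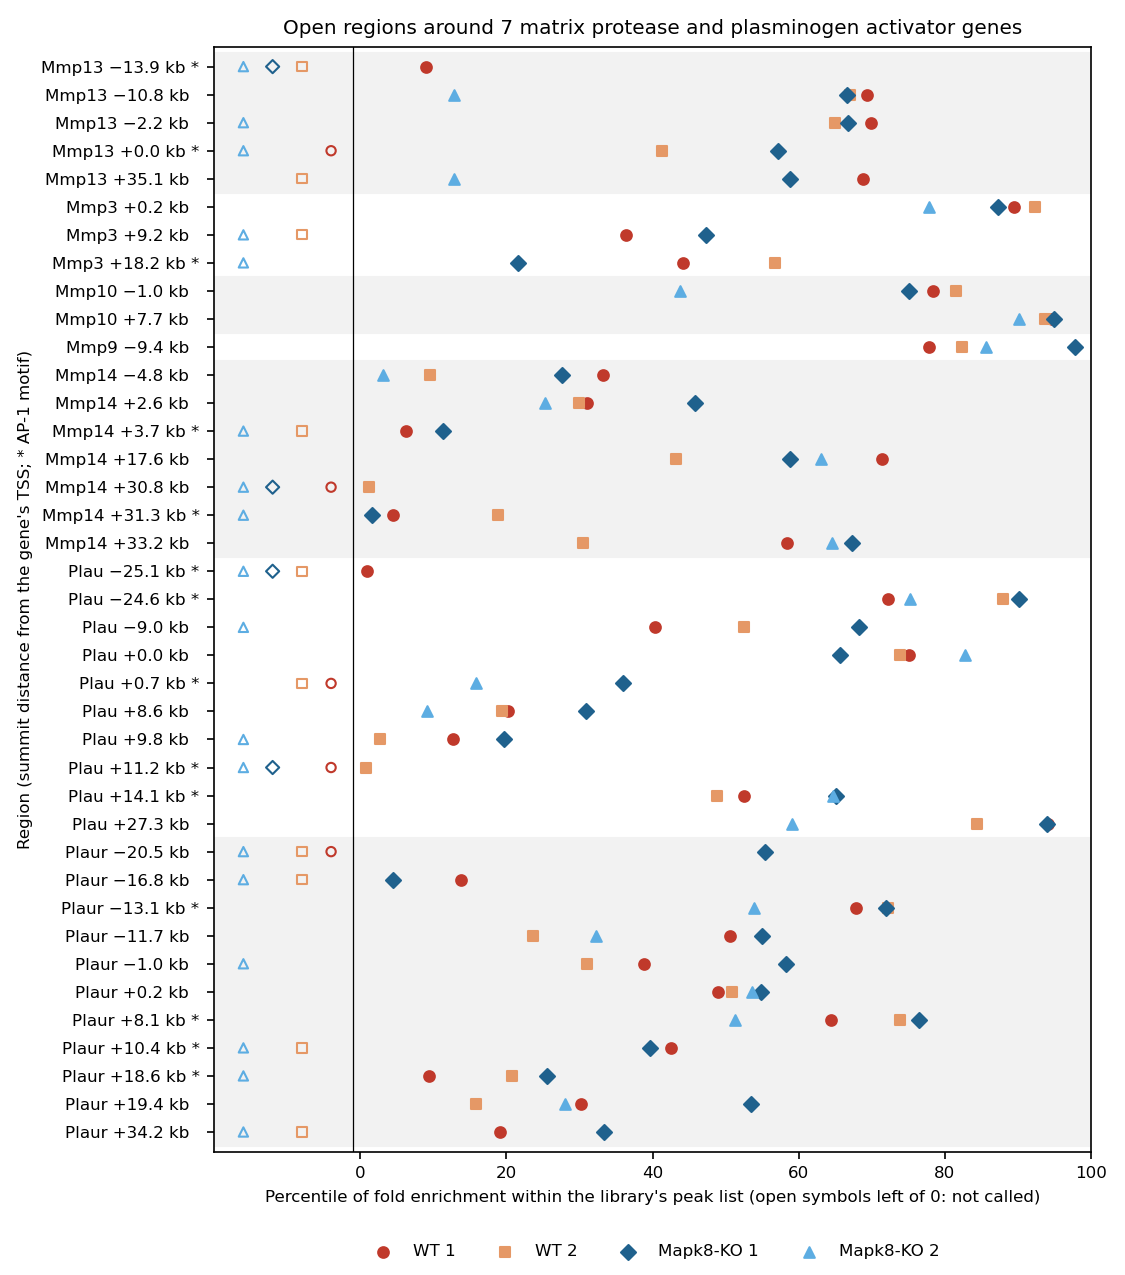
Percentile of fold enrichment within each library's own peak list (x axis) for all 39 regions (y axis, gene and distance of the strongest summit from its TSS; an asterisk marks an AP-1 motif within 100 bp of the summit). Filled symbols are called peaks and open symbols left of 0 a region not called in that library; Mapk8-KO 2 stands to the left of the other libraries at the Mmp13 region 10.8 kb upstream, at 12.8, and at the Mmp10 region 1.03 kb upstream, at 43.7.

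Among the 5 genes with a promoter region, percentiles of fold enrichment ran from 77.9 to 92.4 at Mmp3, from 65.6 to 82.7 at Plau and from 43.7 to 81.6 at Mmp10. Plaur lay between 48.9 and 54.8, and Mmp13 at 41.3 and 57.2 in the 2 libraries that called it. The ranges of Mmp3, Plau and Mmp10 overlap, as do those of Mmp10, Plaur and Mmp13. Without overlap, Mmp3 and Plau stood above Plaur and Mmp13. Over the 19 regions called in every library, 10 log2 differences were below 0 and 9 above, beside 49.3% below 0 among all regions tested. Their median was -0.15 beside 0.0053 for all regions, with -0.52 for the 4 chromosome 9 regions and 0.059 for the other 15. The set had no common direction. Of the 10 values below 0, 4 were on chromosome 9 and 6 at Mmp14, Plau and Plaur.

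The partners and inhibitors of these proteins were read in the same way. The list held 34 genes, namely other MMPs, the tissue inhibitors of metalloproteinases (TIMPs), the membrane inhibitor Reck, the metalloproteinase inducer Bsg, other proteins of plasminogen activation, serpins that inhibit it and the clearance receptor Lrp1. Of these, 33 had a region in their windows, and 198 regions lay outside those already described. Mmp1a had 4 regions, all of them shared with the windows of Mmp3 and Mmp10. Of the 198 regions 92 were called in every library, and limma called 0 of them in either direction, with a median log2 difference of 0.053. The AP-1 motif was near the summit of 44, or 22.2%, close to the 23.7% of all regions.

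Called in both WT libraries and in neither Mapk8-KO library were 5 of the 198, or 2.53%, near the 2.17% of all regions. These lay at Timp3, Plat, Anxa2, Serpinb2 and Lrp1. The Timp3 region, in an intron of the gene for an inhibitor that binds to the matrix, had an AP-1 motif and 39 fragments in each WT library, at percentiles of 8.97 and 19.7. Plat encodes the tissue plasminogen activator, and its region held 37 and 23 fragments. The reverse was seen for 2 regions, at S100a10 and at Lrp1, which is 1.01% against 1.65% of all regions. The shares were near or below those of all regions, and these calls are given as values only.

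By rank, 1 of the 92 regions stood higher in Mapk8-KO, or 1.09% against 3.78% of all regions, and 2 in WT, or 2.17% against 2.65%. Both shares were below those of all regions, and the 3 regions are described by their values only. The higher one was the promoter of Plgrkt (chr19:29361608-29362446), a plasminogen receptor, at percentiles of 76.0 and 67.0 in WT and 91.2 and 94.3 in Mapk8-KO. It held 95 and 52 fragments in WT and 134 and 84 in Mapk8-KO, and the log2 difference was 0.57 (SE 0.18, limma adjusted p = 0.178). The lower ones were a Plgrkt intron region with an AP-1 motif, nearer to Cd274, with a log2 difference of -0.58 (SE 0.24, adjusted p = 0.369 by limma), and a region in the window of Mmp25, with -0.33 (SE 0.28, adjusted p = 0.733 by limma). None passed the test, and the 2 Plgrkt regions had opposite signs.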

How the data were processed

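ATAC-seq peak lists of 4 libraries, 2 WT and 2 Mapk8-KO, were analysed, grouped as labelled. The authors aligned read pairs to mm10 with Bowtie2, according to their methods, and ran MACS2 on each library. The submitters' processing notes also name Trimmomatic 0.36, STAR 2.5.3, Picard and SAMtools, without saying for which data. Whether read ends were shifted for the Tn5 cut is not given in the sources used here. The deposited columns are the authors' fold enrichment at the summit, a ratio over local background, the −log10 p and q values, a score derived from q and, as the last deposited column, the summit's offset in bp.

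Peaks were merged at 1 bp overlap and placed on GENCODE M21 basic genes. A promoter region lay within 2 kb of a TSS. Summit fragments were recovered by solving fold and p together, and at least 99.996% of peaks gave a whole number to within 0.05. Each library was centred by its median log2 ratio to the region mean over the 40159 regions called in all 4. Differences were tested with limma 3.58.1 in R 4.3.3 (variance trend, Benjamini-Hochberg adjustment), after tests on simulated data. An exact permutation test over 2 against 2 libraries cannot give a p below 0.333 and was not used. Shares have Wilson 95% intervals, which cover counting error only.

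The 7 genes, the list of 34 further genes, the motifs and the tests were chosen with earlier results of these data known. Named were the promoter region of each gene with the highest mean percentile, its strongest other region called in all 4 with that gene nearest, every region specific to or ranked higher in a genotype or passing limma, and pathway genes with such a region. Other regions were named to account for all 39, after their values were seen. Alternatives were windows of 10 and 50 kb, regions nearest to the gene only, a q of at most 0.001, lists of equal length, a cover of 50%, other percentiles and rank gaps of 5 and 20 points, motif windows, fold enrichment in place of fragments, other centring, no variance trend, a block for the replicate number, and each library left out in turn. The centring on library medians was chosen after seeing the data.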

Additional observations from a re-analysis of the deposited data

How the results depend on the processing

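Of 95 alternatives for counts, medians and shares, 63 kept the value and 32 moved it. A count was kept within 1.5 times, a median within the spread between libraries, and an AP-1 share within its Wilson interval. The number of regions called in all libraries fell from 19 to 10 with only regions nearest to the gene. The median log2 difference was 0.050 with windows of 50 kb and -0.30 with nearest regions. Regions of both WT libraries only rose from 0 to 1 with lists of equal length and with a cover of 50%, and those of both Mapk8-KO libraries only from 1 to 2 with lists of equal length. Regions ranked higher in Mapk8-KO numbered 2 with a gap of 5 points and 0 with a gap of 20 points, with nearest regions, with percentiles among shared regions and with percentiles of −log10 p. The AP-1 share was 21.1% in regions called in all 4. Calls of limma over all regions, 94 as reported, were 0 without a variance trend (3898 at an unadjusted p under 0.05), 0 with log2 fold enrichment (2698 unadjusted), 13 centred on promoters and 244 centred on library medians, a setting chosen after seeing the data. In each of these settings, and with any other library left out, the calls among the 19 regions were 0, and without Mapk8-KO 1 they were 3.

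The replicate numbers share only a number, with a correlation of 0.04 between the genotypes' differences of replicate 1 and 2 over 40159 regions. With the replicate block limma called 308 regions, none among the 19 (unadjusted, 4731 over all regions), and 2 regions were ranked higher in Mapk8-KO. It changed no other call.

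Leaving out each library in turn gave 19 to 26 regions called in all, 0 to 7 of WT only, 1 to 2 of Mapk8-KO only, 0 to 7 ranked higher in WT and 1 to 7 in Mapk8-KO, 13 to 1947 limma calls over all regions and 0 to 3 among these genes, and medians of -0.17 to -0.02. Without Mapk8-KO 1 the 7 regions missing only in Mapk8-KO 2 count as WT only, and 7 rank higher in WT. Without Mapk8-KO 2, 7 rank higher in Mapk8-KO, and without WT 1, 4. A lone library is assumed to vary like the others.

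Signs turned, with no call in any case, at regions numbered along the chromosome. Centred on promoters, Mmp14 regions 2 and 4 gave -0.020 and -0.017, Plau region 4 -0.031 and Plaur region 4 -0.050. With log2 fold enrichment, Plau region 4 gave -0.021 and Plaur region 6 gave 0.055. Leaving out a library, the values ran from -0.10 to 0.27 at Mmp14 region 2, -0.12 to 0.29 at region 4 and -0.0086 to 0.29 at region 7, from -0.20 to 0.40 at Plau region 2, -0.25 to 0.39 at region 4 and -0.68 to 0.093 at region 10, and from -0.40 to 0.015 at Plaur region 3, -0.17 to 0.28 at region 4 and -0.33 to 0.015 at region 6. The cause was not tested. WT 2 and Mapk8-KO 2 were the shallower libraries, and the part of depth in missing calls was not tested.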
